A study of Homo sapiens with 9 samples.

Results

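The 40 genes described here encode the folding machinery of the endoplasmic reticulum (ER), its degradation pathway and the unfolded protein response. They were taken by name from the deposited table of read counts per Ensembl gene, and all 40 were found among its 58347 rows. Their values were read in 9 RNA-seq libraries of K562-FIRE cells. K562 is a human erythroleukaemia line. All 9 libraries come from cells that stably express dCas9, an MS2-Fkbp(1x) fusion and an SS18-Frb fusion, each driven by an EF1a promoter. A guide RNA (sgRNA) holds dCas9 at its site, and rapamycin joins Fkbp to Frb, which brings SS18, a subunit of the BAF chromatin remodelling complex, to that site. Rapamycin also inhibits the growth kinase mTORC1 in cells with any guide. The 4 groups were the HBG1 promoter sgRNA with 10 nM rapamycin for 24 h (n = 3), the same guide with DMSO for 24 h (n = 3), a non-targeting sgRNA with rapamycin at that dose and time (n = 2) and the non-targeting sgRNA with DMSO (n = 1). The question of the study was whether HBG1 rises when the cell's own BAF complex is recruited to its promoter. The labels do not say whether replicates are separate cultures or whether the line is 1 clone, so p-values measure the spread between these libraries, which may be technical.

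Secreted and membrane proteins enter the ER through the Sec61 channel and fold there with the help of the chaperone BiP (HSPA5), the lectins calreticulin and calnexin, and enzymes that form disulfide bonds. Proteins that fail to fold are returned to the cytosol and destroyed, a route called ER-associated degradation (ERAD). When unfolded proteins build up, the sensors IRE1 (ERN1), PERK (EIF2AK3) and ATF6 start the unfolded protein response. IRE1 splices the mRNA of the transcription factor XBP1, ATF6 is cut to release a transcription factor, and PERK phosphorylates eIF2alpha, which slows translation. Spliced XBP1 and cut ATF6 are known to bind promoter sequences called ER stress response elements.

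Library totals ran from 19797409 to 31619671 counts. Levels are given as CPM, the counts of a gene relative to its library's total over the genes tested, after TMM scaling. Fold changes are log2 values from edgeR's quasi-likelihood fit over all 23675 genes with enough counts, which are the genes tested. A gene was called at a Benjamini-Hochberg adjusted p under 0.05 over all those genes. Erythroid genes that mark K562 were present in every library, with GATA1 between 190 and 274 CPM and HBZ between 1790 and 3560 CPM. The T-cell gene CD3E was between 0 and 0.361 CPM and the liver gene ALB between 0 and 0.19 CPM. HBG1 itself was at 1530, 1810 and 2450 CPM with the HBG1 sgRNA and rapamycin and at 137, 313 and 436 CPM with that guide and DMSO. With the non-targeting sgRNA it was at 8850 and 8940 CPM with rapamycin and at 8230 CPM with DMSO, above every library with the HBG1 sgRNA. These are bulk libraries, so fewer cells making an mRNA and less of that mRNA in each cell cannot be told apart.

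Genes of this response are known for shared promoter elements, so the elements were looked for in the RefSeq promoters (GRCh38.p14, 250 bases before to 50 after each start). A window was found for 37 of the 40 genes, with none for PDIA3, DERL1 and DERL3. The ER stress response element ERSE was searched on both strands as CCAAT and CCACG with 9 bases between them. It was present in 7 of 37 windows (18.9%) against 22 of all 27305 promoters (0.0806%). The related ERSE-II, searched as ATTGG and CCACG with 1 base between them, was present in 3 of 37 (8.11%) against 15 of all promoters (0.0549%). These elements were defined on genes such as HSPA5 and HERPUD1, so their presence in the list is no independent result. The following stretches are from 6 of the 10 genes with a match, chosen because all 6 fell with rapamycin. They run 5′ to 3′ on the gene's strand, with the match in capitals.
HSPA5: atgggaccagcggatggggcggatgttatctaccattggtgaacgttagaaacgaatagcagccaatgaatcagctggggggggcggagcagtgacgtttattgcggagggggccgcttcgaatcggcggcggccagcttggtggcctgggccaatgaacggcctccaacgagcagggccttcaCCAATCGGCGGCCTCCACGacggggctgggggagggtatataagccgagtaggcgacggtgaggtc
HYOU1: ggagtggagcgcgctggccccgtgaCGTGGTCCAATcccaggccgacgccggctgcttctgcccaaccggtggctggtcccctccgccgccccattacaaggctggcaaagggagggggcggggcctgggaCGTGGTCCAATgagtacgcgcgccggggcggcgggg
SDF2L1: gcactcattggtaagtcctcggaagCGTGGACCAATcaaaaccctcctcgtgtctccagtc
CALR: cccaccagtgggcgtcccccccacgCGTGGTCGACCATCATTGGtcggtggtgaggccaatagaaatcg
HERPUD1: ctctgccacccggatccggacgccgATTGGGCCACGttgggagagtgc
XBP1: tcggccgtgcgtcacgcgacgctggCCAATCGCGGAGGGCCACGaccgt
The HSPA5 stretch is the whole 250 bases before the start (chr9:125241344-125241593, minus strand), with 1 ERSE match 66 to 48 bases before it. HYOU1 (chr11:119057249-119057415, minus strand) holds 2 ERSE-II matches, both on the opposite strand of the gene, and SDF2L1 (chr22:21642089-21642149, plus strand) holds 1 that is also on the opposite strand. CALR (chr19:12938359-12938427, plus strand) holds an ERSE on the opposite strand. HERPUD1 (chr16:56932000-56932047, plus strand) holds an ERSE-II, and XBP1 (chr22:28800598-28800646, minus strand) an ERSE, both on the gene's strand. The other 4 genes with a match were HSP90B1, which holds 2, CRELD2, CANX and ERO1B. HSP90B1 also fell and is not printed because a match lies in an annotated exon. The UPRE, TGACGTGG, was in 2 of 37 windows (5.41%), those of HYOU1, where it overlaps the first ERSE-II, and DNAJC10, against 0.795% of all promoters. The amino acid response elements TGATGNAAT and TTTGCATCA were in 0 of 37, against 1.02% and 0.256% of all promoters. A match is a description of these letters only.

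With the HBG1 sgRNA, rapamycin was accompanied by lower mRNA of the chaperones HSPA5, HSP90B1, HYOU1 and SDF2L1, the lectin CALR, the transcription factor XBP1 and 6 other genes of the list, while DERL3 and PPP1R15A rose. In all, 12 of the 40 fell, 2 rose and 26 were not called. Among all genes tested, 6.80% were called, 4.05% lower and 2.75% higher. At an unadjusted p under 0.05 there were 22 of the 40, against 20.8% of all genes. Among the 15350 genes whose log2 CPM averaged 1 or more, a level that 39 of the 40 exceed, 11.5% were called and 6.25% were lower. The median log2 fold change of the 40 genes was -0.19, and that of all genes tested was 0.02. In 21 genes every rapamycin library was below every DMSO library, and in 3 every one was above, against 13.1% and 12.2% of all genes. A fit with the replicate number as a block called 21 of the list (17 lower, 4 higher). In that fit 17.1% of all genes were called, 9.62% lower and 7.43% higher. The labels do not say that equal numbers are pairs. With both HBG1 sgRNA libraries numbered 1 left out, 15 were called, where 9.09% of all genes were. Without the HBG1 DMSO replicate 2 or without replicate 3 the count was 7, and without the HBG1 rapamycin replicate 3 it was 9.

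The summed level of the 40 genes was lower in every rapamycin library than in every DMSO library. It was 4944, 4999 and 5022 CPM in the DMSO libraries and 4242, 4298 and 4414 CPM in the rapamycin libraries with the HBG1 sgRNA. With the non-targeting sgRNA it was 5040 CPM with DMSO and 4396 and 4397 CPM with rapamycin. In shares, the list took 0.494 to 0.504% of the scaled counts of the genes tested with DMSO and 0.424 to 0.441% with rapamycin. Within the 3 numbered pairs, the median log2 ratio of the list was -0.18, -0.22 and -0.16.

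**Figure D1:**
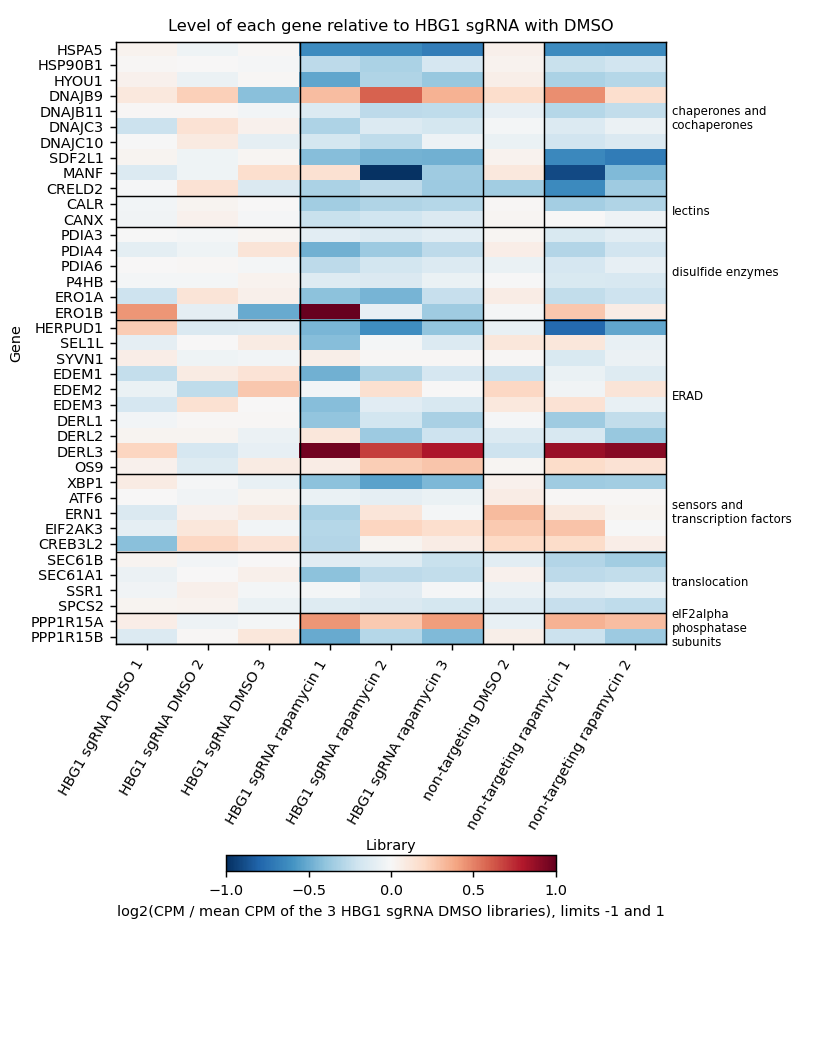
Level of 39 of the 40 genes (rows, by role) in each of the 9 libraries (columns), as log2 of CPM over the mean of the 3 HBG1 sgRNA DMSO libraries, with colours limited to -1 and 1. WFS1 is left out because it had 1 to 14 counts per library. HSPA5 is blue in all 5 rapamycin libraries and DERL3 red in all 5, while the single non-targeting DMSO library lies near the HBG1 sgRNA DMSO libraries for both.

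Among the 10 chaperones and their partners, 4 fell and 0 rose. HSPA5 encodes BiP, the Hsp70 of the ER lumen (chr9:125234853-125241330, GRCh38, minus strand, GENCODE 29). It was at 338, 320 and 333 CPM with DMSO and at 214, 212 and 205 CPM with rapamycin. The groups were far apart, with a gap larger than the spread within either. HSPA5 fell by 36.4%, which is -0.65 on the log2 scale (SE 0.07, edgeR adjusted p = 6.97e-05), the largest fall in the list.

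SDF2L1, a partner of the ER chaperone network (chr22:21642261-21644298, plus strand), was at 172, 164 and 171 CPM with DMSO and at 126, 122 and 121 CPM with rapamycin. It fell by 27.2%, and the log2 fold change was -0.46 (SE 0.07, adjusted p = 0.001). HYOU1, a large Hsp70-related exchange factor for BiP (chr11:119044189-119057202, minus strand), was at 181, 168 and 177 CPM with DMSO and at 122, 142 and 135 CPM with rapamycin. The lowest DMSO library stood above the highest rapamycin library for both genes. The log2 fold change of HYOU1 was -0.40 (SE 0.07, adjusted p = 0.00457).

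HSP90B1 encodes GRP94, the Hsp90 of the ER lumen (chr12:103930107-103953645, plus strand). Its DMSO libraries lay close together at 390, 387 and 383 CPM, and its rapamycin libraries were at 323, 311 and 345 CPM. The groups did not overlap, and the log2 fold change was -0.25 (SE 0.07, adjusted p = 0.036). That call was lost when any 1 of 7 libraries was left out. The adjusted p was then 0.0977 and 0.0568 without the HBG1 rapamycin replicates 2 and 3, 0.0666, 0.129 and 0.101 without the HBG1 DMSO replicates 1, 2 and 3, and 0.0605 and 0.0602 without the non-targeting rapamycin replicates 1 and 2. Its pseudogene copy HSP90B2P was between 0.197 and 0.907 CPM, so few reads were assigned to that copy.

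The other 6 genes of this role were not called. DNAJB9, the ERdj4 cochaperone that acts on IRE1, was at 11.7, 12.8 and 8.12 CPM with DMSO and at 13.5, 16.4 and 13.8 CPM with rapamycin. It was the only chaperone gene with all rapamycin libraries above all DMSO libraries (log2 fold change 0.41, SE 0.17, adjusted p = 0.162), and it was called higher with the replicate block (0.44, adjusted p = 0.0307) but not with an additive model (0.33, adjusted p = 0.122). Its log2 fold change was 0.25 without the HBG1 DMSO replicate 3, and 0.25 to 0.55 over all libraries left out in turn. The exons of DNAJB9 share 9.9% of their bases with the antisense genes PNPLA8 and THAP5. PNPLA8 had a log2 fold change of 0.33 (edgeR adjusted p = 0.0772) and THAP5 of -0.22 (adjusted p = 0.373). DNAJB11, the ERdj3 cochaperone of BiP, was at 59.1, 58.8 and 57.5 CPM with DMSO and at 53.1, 48.8 and 48.9 CPM with rapamycin. Its adjusted p was 0.113, and 0.0448 with the replicate block, where the log2 fold change was -0.21. Its exons share 23.2% of their bases with other genes. CRELD2, an ER chaperone-like protein, was at 18.6, 20.8 and 17 CPM with DMSO and at 15.1, 15.7 and 14.6 CPM with rapamycin (log2 fold change -0.32, SE 0.13, adjusted p = 0.146).
DNAJC3, a cochaperone also known as P58IPK, and DNAJC10, the disulfide-reducing ERdj5, had log2 fold changes of -0.21 and -0.16, and their libraries overlapped. That of DNAJC3 ran from -0.30 to -0.13 with 1 library left out. MANF, a secreted ER stress protein, varied widely, with 10.8, 11.5 and 13.3 CPM with DMSO and 13.2, 5.99 and 9.26 CPM with rapamycin. The rapamycin library numbered 1 of MANF was as high as the DMSO libraries, and the 95% interval of its log2 fold change ran from -0.79 to 0.14. Its estimate was -0.32, with -0.62 without the HBG1 rapamycin replicate 1 and -0.09 without replicate 2. MANF was called lower with both HBG1 sgRNA libraries numbered 1 left out (-0.68, adjusted p = 0.0326) and with a block within each guide (-0.42, adjusted p = 0.0272), and not with the block on the 6 HBG1 sgRNA libraries (-0.37, adjusted p = 0.184).

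Calreticulin and calnexin hold newly made glycoproteins until they are folded. CALR (chr19:12938578-12944489, plus strand) was at 450, 466 and 458 CPM with DMSO and at 359, 371 and 375 CPM with rapamycin. The gap between the groups was several times the spread within either. CALR fell by 19.6% (log2 fold change -0.32, SE 0.06, adjusted p = 0.00775), with an adjusted p of 0.0527 without the HBG1 DMSO replicate 2. CANX was at 693, 728 and 704 CPM with DMSO and at 607, 617 and 642 CPM with rapamycin, again without overlap. Its log2 fold change of -0.19 (SE 0.06) was not called, with an adjusted p of 0.095, and was called with the replicate block (-0.18, adjusted p = 0.0298).

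Of the 6 genes for disulfide bond formation, 2 fell. PDIA4, the ERp72 disulfide isomerase (chr7:149003062-149028641, minus strand), was at 156, 162 and 183 CPM with DMSO and at 120, 130 and 139 CPM with rapamycin. Its log2 fold change was -0.36 (SE 0.08, adjusted p = 0.0146), with an adjusted p of 0.0921 without the HBG1 DMSO replicate 3. ERO1A, the oxidase that recharges these isomerases (chr14:52639916-52695900, minus strand), was at 37.4, 47.4 and 44.9 CPM with DMSO and at 32.5, 31.4 and 36.8 CPM with rapamycin. The lowest DMSO library and the highest rapamycin library of ERO1A nearly met. Its log2 fold change of -0.36 (SE 0.10) passed narrowly, with an adjusted p of 0.0465. That call was lost without any of the HBG1 rapamycin replicates 1, 2 and 3 (adjusted p = 0.084, 0.135 and 0.0604), the HBG1 DMSO replicates 2 and 3 (0.21 and 0.156) or the non-targeting rapamycin replicates 1 and 2 (0.0688 and 0.0685).

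The 3 other isomerases lay in the same direction without a call. PDIA6 was at 189, 190 and 186 CPM with DMSO and at 157, 166 and 171 CPM with rapamycin, with a log2 fold change of -0.19 and an adjusted p of 0.105, or 0.0315 with the replicate block. P4HB, the founding disulfide isomerase, was at 411, 410 and 426 CPM with DMSO and at 381, 377 and 397 CPM with rapamycin (log2 fold change -0.11, adjusted p = 0.365). PDIA3, the isomerase that works with calreticulin and calnexin, was at 249, 247 and 254 CPM and then at 233, 228 and 232 CPM (log2 fold change -0.12, adjusted p = 0.337). No DMSO library of these 3 genes was below a rapamycin library. The exons of PDIA6 share 25.2% of their bases with an antisense gene. The exons of PDIA3 share 33.3% of their bases with antisense genes, and it has a pseudogene copy, PDIA3P1, at 2.96 to 4.46 CPM, so its counts are uncertain. ERO1B, the second oxidase, was low, and its rapamycin library numbered 1 stood apart at 10.2 CPM, against 4.09 and 3.38 CPM in the other two. Its DMSO libraries were at 5.86, 4.05 and 3.05 CPM. Its log2 fold change was 0.42 (SE 0.34, adjusted p = 0.542) with that library and -0.23 without it.

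**Figure D2:**
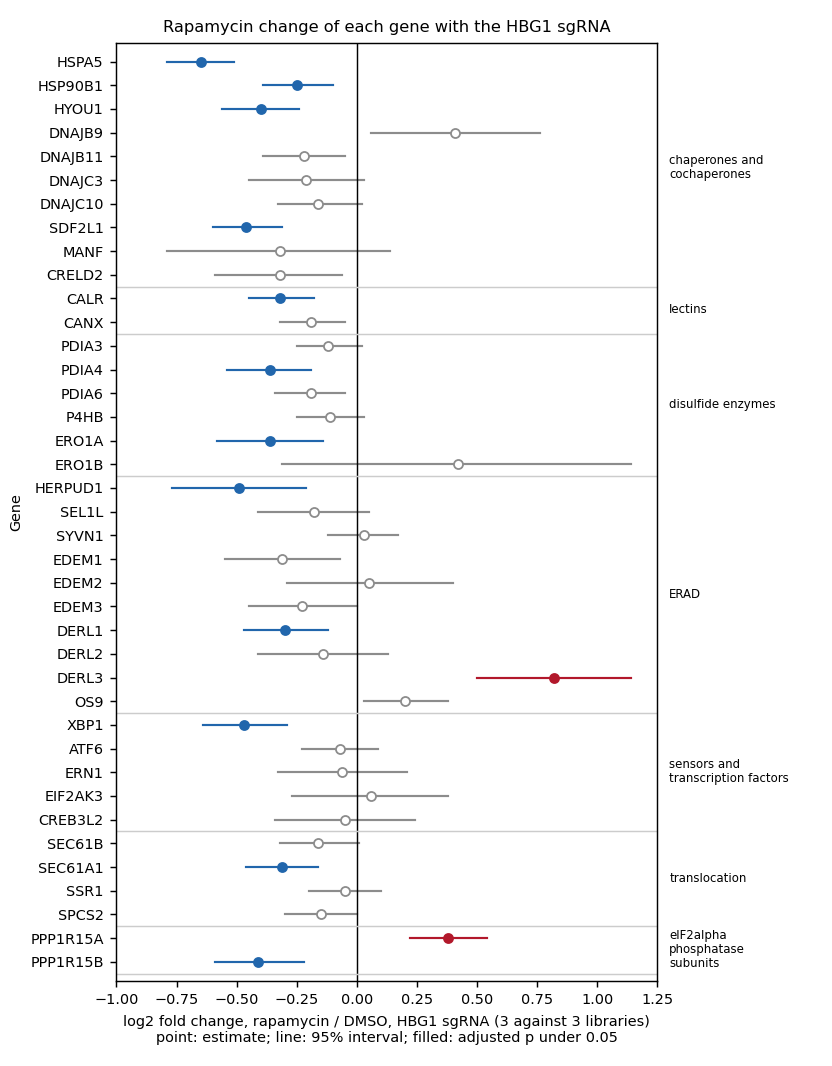
Log2 fold change of 39 genes with rapamycin against DMSO in HBG1 sgRNA cells (horizontal axis), with 95% intervals, grouped by role. Filled points were called at an adjusted p under 0.05, blue for lower and red for higher. HSPA5 lies farthest to the left at -0.65 and DERL3 farthest to the right at 0.82, and WFS1 is left out for its low counts.

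The 10 ERAD genes did not move as one, with 2 lower, 1 higher and 7 not called. HERPUD1 organises the ubiquitin ligase complex of the ER membrane and is itself a known target of the response (chr16:56932048-56944863, plus strand). It was at 26.5, 20.1 and 20.2 CPM with DMSO and at 16.2, 14.5 and 16.9 CPM with rapamycin. The DMSO library numbered 1 was the highest, and the groups did not overlap. The log2 fold change was -0.49 (SE 0.13, adjusted p = 0.037). The call was lost without the HBG1 rapamycin replicates 2 or 3 (adjusted p = 0.113 and 0.0827) and without the HBG1 DMSO replicates 1, 2 or 3 (0.149, 0.0579 and 0.0595).

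The derlins, membrane proteins of the channel that returns misfolded proteins to the cytosol, went in different directions. DERL1 was at 60.8, 62.5 and 62.5 CPM with DMSO and at 47.2, 54.6 and 49.4 CPM with rapamycin, and the log2 fold change was -0.30 (SE 0.08, adjusted p = 0.0413). The DERL1 call was lost without the HBG1 rapamycin replicates 1 or 3 (adjusted p = 0.102 and 0.139), the HBG1 DMSO replicates 1, 2 or 3 (0.0603, 0.139 and 0.127) or the non-targeting rapamycin replicates 1 or 2 (0.0577 and 0.0576). DERL2 was at 21.9, 21.9 and 20.6 CPM with DMSO and at 23.2, 16.7 and 18.6 CPM with rapamycin, which overlap, and its log2 fold change of -0.14 ran from -0.28 to -0.05 with 1 library left out. DERL3 (chr22:23834503-23839128, minus strand) was at 7.97, 6.11 and 6.49 CPM with DMSO and at 13.4, 11.1 and 12 CPM with rapamycin. All 3 rapamycin libraries were above all 3 DMSO libraries, and DERL3 rose 1.77-fold (log2 fold change 0.82, SE 0.15, adjusted p = 0.00453), the largest change of the list in either direction among called genes.
The counts of DERL3 are uncertain, because 77.0% of its exon bases lie opposite exons of the antisense gene SMARCB1 and the strand setting of the counting is not given in the sources used here. SMARCB1 was at 66.7 ± 0.529 CPM with rapamycin and at 69.3 ± 8.47 CPM with DMSO (SD, n = 3 each), and its log2 fold change was -0.06 (adjusted p = 0.781). Of the other called genes, HSP90B1, HYOU1, CALR, ERO1A, DERL1 and SEC61A1 share 7.2 to 9.9% of their exon bases with other annotated genes.

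The genes for the ubiquitin ligase core and the mannose-trimming enzymes were not called. SYVN1, the HRD1 ligase, was at 309, 287 and 289 CPM with DMSO and at 307, 297 and 297 CPM with rapamycin. Its log2 fold change was 0.03 with a 95% interval from -0.12 to 0.17. The exons of SYVN1 share 14.9% of their bases with other genes, among them FAU on the same strand. SEL1L, the partner of HRD1, had a log2 fold change of -0.18 (adjusted p = 0.367), and -0.08 without the HBG1 rapamycin replicate 1. EDEM1, which marks misfolded glycoproteins for removal, was at 34.2, 42.7 and 44.4 CPM with DMSO and at 29, 32.8 and 35.9 CPM with rapamycin. Its lowest library in both groups was the one numbered 1, so the groups overlapped, while in each of the 3 numbered pairs the rapamycin library was the lower one. EDEM1 had -0.31 (log2 fold change, SE 0.11, adjusted p = 0.115), with an adjusted p of 0.0133 with the replicate block and of 0.0284 without the HBG1 DMSO replicate 1. EDEM3 had -0.23 (adjusted p = 0.235) and was called lower with the block (-0.22, adjusted p = 0.0402). EDEM3 had -0.14 without the HBG1 rapamycin replicate 1 or the HBG1 DMSO replicate 2, and EDEM2 had a log2 fold change of 0.05. OS9, a lectin that delivers glycoproteins to HRD1, was at 87.3, 77.8 and 89.7 CPM with DMSO and at 89.4, 101 and 103 CPM with rapamycin. It had a log2 fold change of 0.20 (adjusted p = 0.16) and was called higher with the block (0.21, adjusted p = 0.0431). The exons of OS9 share 13.5% of their bases with an antisense gene.

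Of the 5 sensors and transcription factors, only XBP1 was called. XBP1 (chr22:28794555-28800597, minus strand) was at 66, 61.9 and 59.1 CPM with DMSO and at 46.9, 43 and 45.6 CPM with rapamycin. The groups did not overlap, and XBP1 fell by 27.6% (log2 fold change -0.47, SE 0.08, adjusted p = 0.00298). Counts per gene do not separate spliced from unspliced XBP1 mRNA, so the active form was not measured. ATF6 was at 59.8, 58.2 and 60.9 CPM with DMSO and at 57.1, 56.1 and 57.1 CPM with rapamycin (log2 fold change -0.07, adjusted p = 0.649). The sensor kinases ERN1 and EIF2AK3 had log2 fold changes of -0.06 and 0.06, with 95% intervals from -0.33 to 0.21 and from -0.27 to 0.38. The exons of EIF2AK3 share 15.1% of their bases with antisense genes. CREB3L2, a relative of ATF6 that is also cut at the Golgi, was at 40, 61.8 and 58.8 CPM with DMSO and at 43.7, 54.7 and 56.5 CPM with rapamycin. Both libraries numbered 1 were the lowest of their group for CREB3L2.

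The 4 genes of entry into the ER had 1 call. SEC61A1, the channel itself (chr3:128051641-128071683, plus strand), was at 181, 190 and 196 CPM with DMSO and at 142, 158 and 159 CPM with rapamycin. It fell by 19.2% (log2 fold change -0.31, SE 0.07, adjusted p = 0.0173), with an adjusted p of 0.0786 without the HBG1 DMSO replicate 2 and of 0.0886 without replicate 3. SEC61B, a small subunit of the channel, was at 60.9, 58.4 and 59.7 CPM and then at 55.1, 54.6 and 51 CPM (log2 fold change -0.16, adjusted p = 0.275). SPCS2, a signal peptidase subunit, had a log2 fold change of -0.15 (adjusted p = 0.247), and SSR1, a translocon-associated protein, of -0.05 (adjusted p = 0.765). The DMSO and rapamycin libraries of SEC61B and SPCS2 did not overlap and those of SSR1 did.

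PPP1R15A and PPP1R15B both guide a phosphatase to eIF2alpha and so end the translation block, PPP1R15A as the stress-induced GADD34 and PPP1R15B as the constitutive form. They were called in opposite directions. PPP1R15A (chr19:48872392-48876057, plus strand) was at 113, 104 and 106 CPM with DMSO and at 146, 129 and 144 CPM with rapamycin (log2 fold change 0.38, SE 0.07, adjusted p = 0.00673). PPP1R15B (chr1:204403387-204411791, minus strand) was at 82.8, 91.8 and 98.4 CPM with DMSO and at 64, 74.7 and 67 CPM with rapamycin (log2 fold change -0.41, SE 0.09, adjusted p = 0.0113). The groups of neither gene overlapped. The call of PPP1R15B had an adjusted p of 0.0613 without the HBG1 rapamycin replicate 3 and of 0.0553 and 0.0708 without the HBG1 DMSO replicates 2 and 3. WFS1, an ER membrane protein, had 1 to 14 counts per library, too few to compare.

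**Figure D3:**
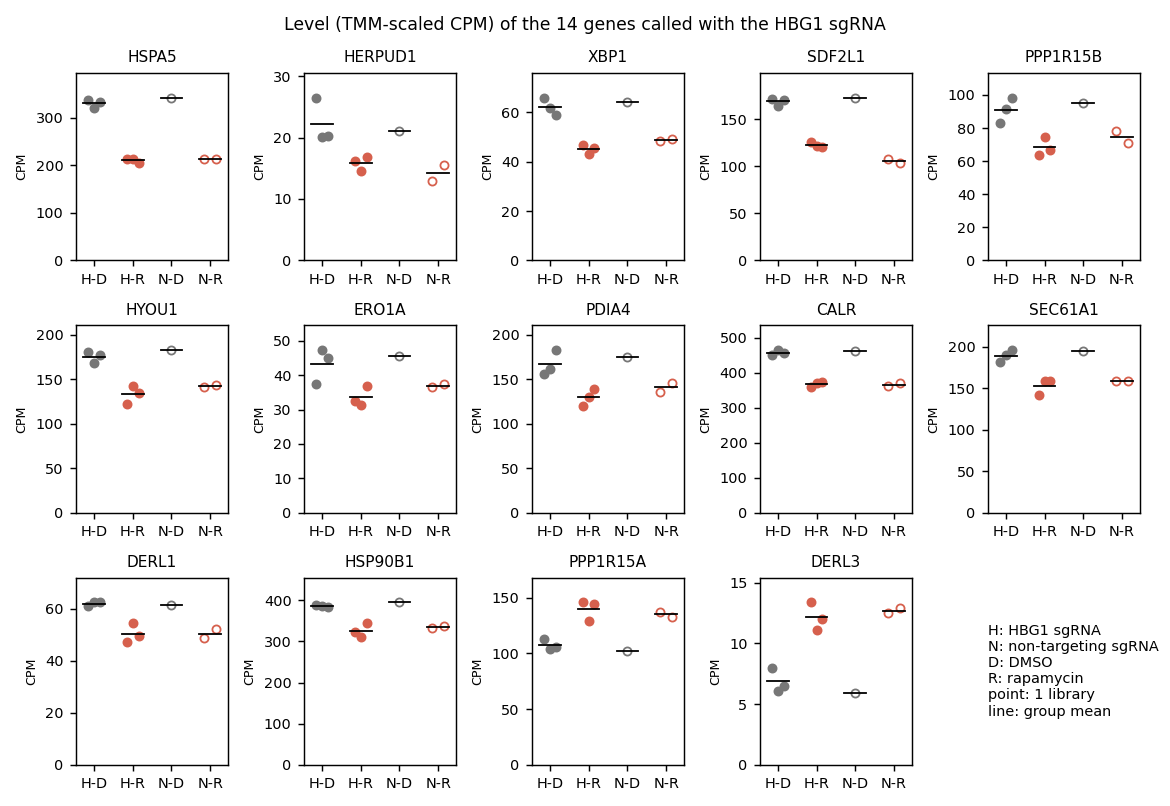
CPM (vertical axes from 0) of the 14 called genes in each library, by guide and treatment, with points for libraries and lines for group means. For all 14 genes the 3 HBG1 sgRNA rapamycin libraries lie on one side of the 3 DMSO libraries, and both non-targeting rapamycin libraries lie on that same side of the single non-targeting DMSO library.

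Levels per kilobase of exon order the genes by abundance in the HBG1 sgRNA DMSO libraries. CALR was highest at 169 ± 2.96 CPM per kilobase (SD, n = 3), followed by SDF2L1 at 154 ± 4.2 and CANX at 114 ± 2.82. HSPA5 at 84.5 ± 2.36 and HSP90B1 at 82.4 ± 0.743 did not differ beyond their spread. The sensor ERN1 stood at 1.61 and ERO1B at 0.806 on the same scale, and WFS1 at 0.0468. Lengths are all annotated exon bases of a gene, which lowers the level per kilobase of genes with long unused exons.

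Calls in relation to the promoter elements can be given as counts. Of the 10 genes with an ERSE or ERSE-II in the window, 7 fell and 0 rose, and the median log2 fold change was -0.36. The 7 were HSPA5, HSP90B1, HYOU1, SDF2L1, CALR, HERPUD1 and XBP1, and the other 3 were CRELD2, CANX and ERO1B. Of the 27 genes whose window held neither, 4 fell and 1 rose, with a median of -0.15. The 3 genes without a window, PDIA3, DERL1 and DERL3, had 1 lower and 1 higher call, with a median of -0.12. With the replicate block, 8 of the 10 and 8 of the 27 fell. Over all genes tested, 4.05% fell in the main fit and 9.62% with the block. The difference between the classes was not tested. The classes were also not matched for level, on which the chance of a call depends.

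The non-targeting sgRNA gives the rapamycin change without a guide to HBG1, from 2 rapamycin libraries and 1 DMSO library, whose spread is assumed to be that of the other groups. HSPA5 was at 342 CPM with DMSO and at 214 and 213 CPM with rapamycin (log2 fold change -0.68, SE 0.10, adjusted p = 0.00617). SDF2L1 was at 173 CPM and then at 108 and 104 CPM (log2 fold change -0.71, SE 0.10, adjusted p = 0.00617). DERL3 was at 5.93 CPM and then at 12.5 and 12.9 CPM (log2 fold change 1.10, SE 0.24, adjusted p = 0.0413). These 3 of the 40 genes were called, where 0.891% of all genes were, 0.566% lower and 0.325% higher. At an unadjusted p under 0.05 there were 14, against 14.1% of all genes. None of the 3 was called without the non-targeting rapamycin replicate 1 (adjusted p = 0.0869, 0.0865 and 0.17 for HSPA5, SDF2L1 and DERL3) or replicate 2 (0.0567, 0.0574 and 0.167). DERL3 was also lost without the HBG1 rapamycin replicate 3 (0.0703) or the HBG1 DMSO replicates 2 or 3 (0.0612 and 0.0672), which enter through the shared estimate of the spread. The median log2 fold change of the 40 genes with this guide was -0.15, and that of all genes 0.03.

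Among the other genes called with the HBG1 sgRNA, XBP1 was at 64.3 CPM with DMSO and at 48.6 and 49.1 CPM with rapamycin (log2 fold change -0.40, adjusted p = 0.138). CALR was at 462 CPM and then at 362 and 371 CPM (-0.34, adjusted p = 0.112), and HYOU1 at 183 CPM and then at 141 and 144 CPM (-0.35, adjusted p = 0.144). PPP1R15A was at 102 CPM and then at 137 and 133 CPM (0.41, adjusted p = 0.109). For all 14 genes called with the HBG1 sgRNA, both non-targeting rapamycin libraries lay past the non-targeting DMSO library in the same direction. Over all genes tested, 35.4% had both rapamycin libraries below that DMSO library and 38.4% had both above. The same direction was also seen for 1525 of the 1609 genes of the whole table called with the HBG1 sgRNA. Of the 26 genes not called, 21 (80.8%) had the same sign with both guides, against 68% of all genes tested, and 97.7% of all genes called with the HBG1 sgRNA had it. EDEM1 was among the exceptions, at 34.8 CPM with DMSO and at 38.6 and 36.9 CPM with rapamycin.

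**Figure D4:**
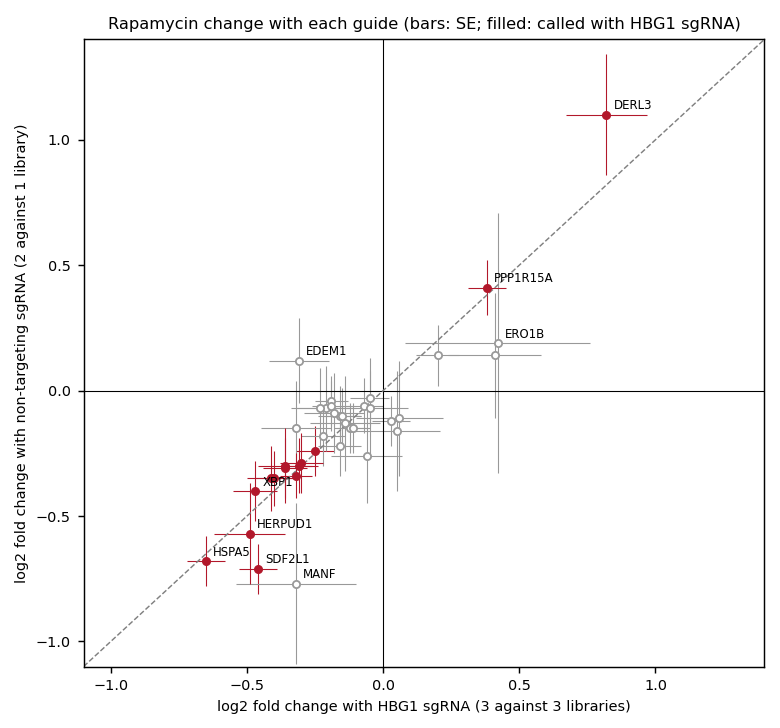
Log2 fold change with rapamycin for 39 genes, with the HBG1 sgRNA on the horizontal axis (3 against 3 libraries) and the non-targeting sgRNA on the vertical axis (2 against 1), with SE bars and a dashed line of equal change. Filled points are the 14 genes called with the HBG1 sgRNA, all of which lie in the lower left or upper right quadrant. EDEM1, not called, lies at -0.31 and 0.12.

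The guide itself was compared under rapamycin, 3 HBG1 sgRNA libraries against 2 non-targeting ones. Cells with different guides also differed in HBG1 itself, with and without rapamycin (levels above), so in this comparison and the interaction the guide and any other difference between those cells cannot be told apart. None of the 40 genes was called by edgeR, DESeq2 or limma-voom, where edgeR called 0.0296% of all genes. At an unadjusted p under 0.05 there were 3, SDF2L1, CANX and EDEM3, against 6.27% of all genes, and the lowest adjusted p was 0.773. SDF2L1 was at 126, 122 and 121 CPM with the HBG1 sgRNA and at 108 and 104 CPM with the non-targeting one, a log2 difference of 0.21 with a 95% interval from 0.05 to 0.38. CANX was at 607, 617 and 642 CPM against 712 and 683 CPM, a log2 difference of -0.17 with an interval from -0.32 to -0.01. Apart from WFS1, log2 differences ran from -0.27 (EDEM3) to 0.33 (MANF), and the median 95% interval reached 0.19 to either side.

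The interaction asks whether the rapamycin change differed between the guides. None of the 40 genes was called, 0 had an unadjusted p under 0.05 (2.86% of all genes had), and 0.00422% of all genes were called. DESeq2 and limma-voom also called 0 of the 40. For HSPA5 the log2 difference between the changes was 0.03, with a 95% interval from -0.22 to 0.28. For XBP1 it was -0.07 (-0.38 to 0.24) and for DERL3 -0.28 (-0.87 to 0.32). SDF2L1, which was lowest in the non-targeting rapamycin libraries, had 0.25 (-0.01 to 0.51), and EDEM1 had -0.43 (-0.85 to 0.00). The median interval reached 0.31 to either side. A gene's difference between guides that is smaller than its own interval's reach could not be called. Larger differences could also be missed, because the intervals are not adjusted for the number of genes tested.

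Other ER genes, in lists that share no gene with the 40, give the surroundings of these changes. Of 145 tested, 11 fell and 9 rose with the HBG1 sgRNA, with a median log2 fold change of -0.07. Over all genes tested, 4.05% fell and 2.75% rose. Of the genes whose log2 CPM averaged 1 or more, 11.5% were called and 6.25% were lower. Among 29 genes of the translocon, signal peptidase and N-glycosylation, 1 fell, SRPRB, a subunit of the signal recognition particle receptor (-0.59, SE 0.10, adjusted p = 0.00205). Among 12 genes of glycan trimming, 0 were called. Among 25 redox enzymes and prolyl isomerases, 2 fell, TMX2 (-0.32, adjusted p = 0.0161) and PPIB (-0.24, adjusted p = 0.042). Of 25 further ERAD genes, 3 fell (AUP1, SELENOS and UBE2G2) and 2 rose (RNF5 and UBXN6).

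The 19 stress transducers had 3 lower and 4 higher calls, where 4.05% of all genes were lower and 2.75% higher. TRIB3, a pseudokinase induced through PERK and ATF4, was at 83.2 ± 10.3 CPM with DMSO and 48 ± 4.33 CPM with rapamycin (SD, n = 3), which is -0.80 on the log2 scale (SE 0.10, adjusted p = 0.000285). It also fell with the non-targeting sgRNA (-0.80, adjusted p = 0.0189). ATF4, the transcription factor translated when eIF2alpha is phosphorylated, fell by 0.37 on the log2 scale (adjusted p = 0.0316) and EIF2S1, which encodes eIF2alpha, by 0.28 (adjusted p = 0.0389). CREB3L4 rose (0.72, SE 0.13, adjusted p = 0.00305), as did ATF6B, the paralog of ATF6 (0.38, adjusted p = 0.0072). ATF6 itself had -0.07. In the ER to Golgi list of 20 genes, SAR1A and TMED2 of vesicle traffic fell (-0.28 and -0.27, adjusted p = 0.0258 and 0.0311) and the retrieval receptor KDELR3 rose (0.58, adjusted p = 0.0382). In the lists for ER calcium (9 genes) and ER-phagy (6 genes), 1 gene each rose, SARAF (0.32, adjusted p = 0.0183) and CALCOCO1, a receptor for autophagy of the ER (0.93, SE 0.12, adjusted p = 0.000337).

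Chaperones of the cytosol and mitochondria served as a comparison outside the ER. Of 22 such heat shock genes, 14 fell and 0 rose with the HBG1 sgRNA, where 4.05% of all genes fell and 2.75% rose. Their median log2 fold change was -0.34. With the non-targeting sgRNA 8 fell, where 0.566% of all genes did, and the median was -0.38. HSPE1, the mitochondrial Hsp10, had -0.73 (adjusted p = 0.000388) with the HBG1 sgRNA and -1.04 (adjusted p = 0.00612) with the non-targeting one. FKBP4, an Hsp90 partner of the FK506-binding protein family, had -0.67 (adjusted p = 0.000109) and -0.76 (adjusted p = 0.00617). The median over the 10 ER chaperone genes was -0.28, beside -0.34 over the heat shock list.

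**Figure D5:**
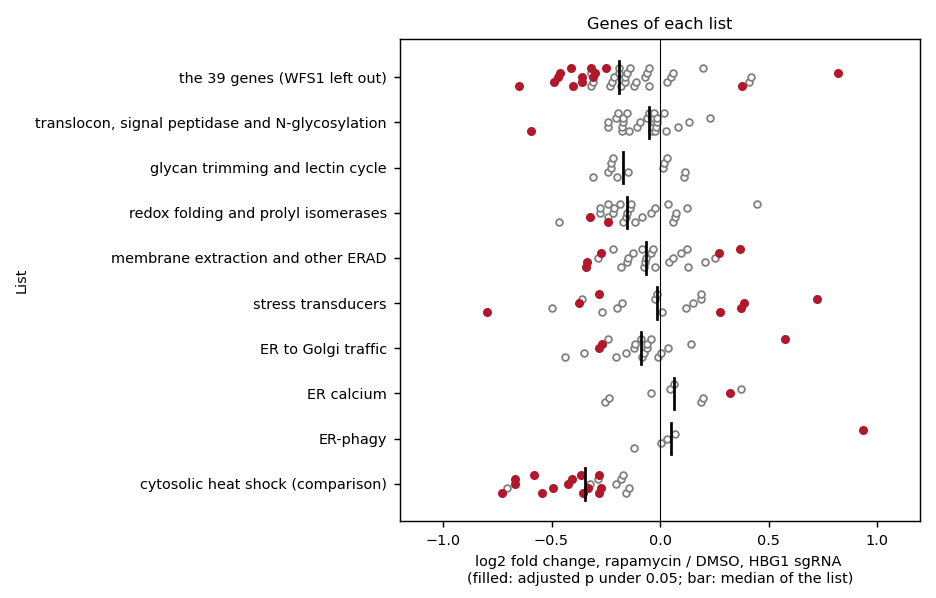
Log2 fold change with rapamycin against DMSO in HBG1 sgRNA cells (horizontal axis) for each gene of the list described here and of 9 comparison lists (rows). Filled points were called, vertical bars are list medians, and 1 ER-phagy gene lies outside the axis. The bars of the ER folding list and of the heat shock list lie at -0.19 and -0.34, and those of the other lists between -0.17 and 0.06.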

How the data were processed

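Poly-A RNA-seq of 9 libraries was analysed. The authors deposited whole-number read counts per Ensembl gene; per the submitters' processing notes, which give no roles, the tools were STAR 2.7.3a, featureCounts, Subread 2.0.0, R 4.1.2, limma 3.34.9 and edgeR 3.24.0, with GRCh38. Strand setting and treatment of multi-mapping reads are not given in the sources used here. GENCODE 29 named 58039 of 58347 gene IDs (99.47%) and gave positions.

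Counts were filtered with filterByExpr (minimum count 10, leaving 23675 genes), TMM-scaled (factors 0.977 to 1.02) and fitted with edgeR 4.0.16 in R 4.3.3 (glmQLFit, glmQLFTest), all 9 libraries, 1 mean per group, after a check on simulated data. SE is the absolute log2 fold change over the square root of F. DESeq2 1.42.0 and limma-voom (limma 3.58.1) were alternatives.

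Members and lists were chosen with earlier results of these data known. All 40 genes could be named; of other lists, called genes with non-overlapping groups, at most 3 per direction. Same-numbered HBG1 sgRNA libraries deviated together (r across 11548 genes 0.556, 0.28 and 0.236, each above 0.1). Across guides they did not (-0.0509 and -0.059). Deviations were taken from group means, so a deviation shared by the libraries numbered 1 alone would also raise r for numbers 2 and 3. Libraries with different numbers were not compared, so the pairing of numbers 2 and 3 was not shown. The use of numbers as pairs rests on this check, since the labels give numbers only.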

Additional observations from a re-analysis of the deposited data

How the results depend on the processing

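Of the 14 genes called with the HBG1 sgRNA, 6 (HSPA5, HYOU1, SDF2L1, DERL3, XBP1 and PPP1R15A) were called under all 21 alternatives, and 8 were lost under at least 1. Leaving out 1 library gave 7 to 14 called genes and a median of -0.21 to -0.15, and over all genes 664, 749 and 693 calls without the HBG1 DMSO replicates 2 and 3 and the HBG1 rapamycin replicate 3, against 1609. The replicate block on the 6 HBG1 sgRNA libraries called 21 of the list and 3441 genes, and those libraries without a block 11 and 1377; beyond the 7 genes given above, the block changed no other call. With an additive model the median was -0.15, and with a replicate block within each guide as well 23 genes were called, with 3263 and 4951 calls over all genes. Upper-quartile scaling gave a median of -0.15 and moved that of all genes by 0.04. With the non-targeting sgRNA, DESeq2 called 6 of the list (720 genes against 211) and leaving out 1 library gave 0 to 3. Leaving out both HBG1 sgRNA libraries numbered 1, chosen after seeing the data, gave 10 with that guide and 15 with the HBG1 sgRNA. The replicate block over all 9 libraries gave 0, 0 and 3 calls for the guide, the interaction and the non-targeting sgRNA, and a block within guides 0 for the interaction. Over all genes, the alternatives gave 0 to 1367 calls with the non-targeting sgRNA (668 with no filter on low counts), 3 to 91 for the guide against 7 and 0 to 8 for the interaction against 1. Signs turned for uncalled genes only: SYVN1 (-0.02), EDEM2 (-0.01) and WFS1 (-0.15) with the additive model, EIF2AK3 (-0.03) and WFS1 (-0.21) with the block within guides, and, leaving out 1 library, ERO1B (-0.23 to 0.71), EDEM2 (-0.06 to 0.20), ERN1 (-0.16 to 0.05), EIF2AK3 (-0.03 to 0.19) and CREB3L2 (-0.22 to 0.07). The cause was not tested. The interaction gives no value without the non-targeting DMSO library, and WFS1 none under the stricter filter or with 6 libraries. Depth limits WFS1, and the single non-targeting DMSO library limits the comparisons that use it.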
